A study of Mus musculus with 4 samples.

Results

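The heavy variable (Ighv) genes outside the Ighv1 family were described in RNA from sorted dural CD45+ cells. They were chosen by symbol, as every gene of the deposited table whose name gives an Ighv subfamily from 2 to 19, and numbered 92 of 55401 genes. The 92 genes fell into 15 subfamilies and carried 91 symbols, since Ighv5-8 was listed under 2 identifiers. The annotation classed 60 as variable genes, 31 as pseudogenes and 1 as a variable-like gene. The table held 93 Ighv1 genes and 160 kappa light chain variable (Igkv) genes beside them.

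The cells came from the dura mater, the outer meningeal layer, of wild-type male C57BL/6J mice. Mice received 2 μl of an AAV9 vector into the cisterna magna at 4 wk of age. The AAV-mVEGF-C vector encodes the lymphatic growth factor VEGF-C, and the AAV-CTRL vector encodes a soluble VEGFR-3 fragment that does not bind it. Each group had 2 libraries, called AAV-CTRL 1 and 2 and AAV-mVEGF-C 1 and 2, and each library pooled cells of 10 to 12 mice. The age at which the mice of these libraries were killed is not given in the sources used here. The comparison asked how VEGF-C acts on dural immune cells at steady state. The spread between libraries is therefore a spread between pools, and a p-value measures no more than that.

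Each B cell joins 1 variable gene to a diversity and a joining segment, and the joined exon encodes the antigen-binding end of its heavy chain. Variable genes of a subfamily resemble each other in sequence, and the Ighv1 family is the most numerous in C57BL/6 mice. B cells transcribe their joined gene at a moderate level, whereas plasma cells, which secrete antibody, transcribe it at a very high level. A library of pooled cells can therefore take many reads of a variable gene from a few cells. In bulk RNA, fewer cells of a type and less RNA per cell cannot be told apart.

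The 92 genes lie on chromosome 12, between positions 113572927 and 115858301 of GRCm38 (GENCODE M21). Of these, 91 are on the minus strand, and 1 of the entries named Ighv5-8, which had no read, is on the plus strand. The genes most used in these libraries differ in sequence even near the conserved end of the variable exon. The last 100 bases of that exon are shown for the most read member of subfamilies 3 and 4 and for the 2 members with the smallest DESeq2 adjusted p, Ighv5-17 and Ighv14-4. Capitals mark the codon of the conserved cysteine that precedes the junction with the diversity segment. The stretches are chr12:113948282-113948381 for Ighv4-1, chr12:114288152-114288251 for Ighv3-6, chr12:113859149-113859248 for Ighv5-17 and chr12:114176438-114176537 for Ighv14-4, all in the coding exon and read from the minus strand.
Ighv4-1: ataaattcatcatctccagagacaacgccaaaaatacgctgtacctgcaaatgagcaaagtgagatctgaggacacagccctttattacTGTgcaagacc
Ighv3-6: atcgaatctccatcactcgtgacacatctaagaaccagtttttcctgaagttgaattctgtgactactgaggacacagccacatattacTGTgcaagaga
Ighv5-17: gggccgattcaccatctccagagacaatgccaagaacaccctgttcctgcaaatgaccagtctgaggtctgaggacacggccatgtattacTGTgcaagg
Ighv14-4: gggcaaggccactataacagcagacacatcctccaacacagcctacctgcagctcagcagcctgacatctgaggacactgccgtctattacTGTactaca

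Other members are close copies of each other, which limits how surely a read can be given to 1 of them. Among the 33 members that were tested, the identity of the variable exon to its nearest other variable gene had a median of 95.24% and ranged from 76.55% for Ighv4-1 to 98.7% for Ighv11-2. The nearest gene belonged to the same subfamily for 31 of the 33. Pseudogenes, such as Ighv4-2 beside Ighv4-1, were not among the genes compared. Of these 33 members, 18 had counts with decimals in 1 or more libraries, as estimated counts have where reads are divided between genes. Their median identity to the nearest gene was 95.75%, against 92.9% for the 15 members with whole counts. A stretch of 300 bases of the exon is shown for pairs in which members with many reads have a near copy, with the differing bases in capitals.
The first pair is Ighv11-2, chr12:114048248-114048547, and Ighv11-1, chr12:113981886-113982185, which differ at 4 positions of the exon, all shown.
Ighv11-2: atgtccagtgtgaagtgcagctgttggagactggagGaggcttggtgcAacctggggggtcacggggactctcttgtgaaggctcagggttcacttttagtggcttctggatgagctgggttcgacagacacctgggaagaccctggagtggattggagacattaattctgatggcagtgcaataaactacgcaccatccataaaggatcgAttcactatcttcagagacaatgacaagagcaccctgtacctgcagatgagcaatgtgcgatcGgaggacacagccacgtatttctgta
Ighv11-1: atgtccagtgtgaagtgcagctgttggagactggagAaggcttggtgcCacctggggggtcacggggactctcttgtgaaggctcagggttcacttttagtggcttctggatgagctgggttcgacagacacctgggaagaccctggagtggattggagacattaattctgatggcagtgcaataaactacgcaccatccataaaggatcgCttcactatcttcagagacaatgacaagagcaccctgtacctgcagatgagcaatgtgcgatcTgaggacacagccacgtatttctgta
The next pair is Ighv10-1, chr12:114479018-114479317, and Ighv10-3, chr12:114523454-114523753, which differ at 10 positions, of which 9 are shown.
Ighv10-1: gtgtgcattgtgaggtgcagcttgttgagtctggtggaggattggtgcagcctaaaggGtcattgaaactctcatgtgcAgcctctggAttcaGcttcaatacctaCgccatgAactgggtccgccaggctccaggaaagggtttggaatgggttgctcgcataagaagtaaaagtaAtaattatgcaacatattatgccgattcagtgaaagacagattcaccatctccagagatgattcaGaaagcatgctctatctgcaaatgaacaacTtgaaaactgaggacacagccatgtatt
Ighv10-3: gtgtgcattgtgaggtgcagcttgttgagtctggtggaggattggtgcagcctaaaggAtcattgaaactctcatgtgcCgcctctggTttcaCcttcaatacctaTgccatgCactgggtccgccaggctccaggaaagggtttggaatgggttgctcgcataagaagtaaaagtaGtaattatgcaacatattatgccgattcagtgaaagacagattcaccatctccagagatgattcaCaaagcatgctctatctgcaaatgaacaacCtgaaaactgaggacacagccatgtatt
The last pair is Ighv14-2, chr12:113994474-113994773, and Ighv14-1, chr12:113931958-113932257, which differ at 9 positions, of which 8 are shown.
Ighv14-2: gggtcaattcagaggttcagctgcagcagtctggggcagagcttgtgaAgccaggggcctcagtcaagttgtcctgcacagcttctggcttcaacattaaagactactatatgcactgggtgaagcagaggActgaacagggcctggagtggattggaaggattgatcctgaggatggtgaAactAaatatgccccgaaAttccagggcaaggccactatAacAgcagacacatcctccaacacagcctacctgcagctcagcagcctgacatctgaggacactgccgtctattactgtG
Ighv14-1: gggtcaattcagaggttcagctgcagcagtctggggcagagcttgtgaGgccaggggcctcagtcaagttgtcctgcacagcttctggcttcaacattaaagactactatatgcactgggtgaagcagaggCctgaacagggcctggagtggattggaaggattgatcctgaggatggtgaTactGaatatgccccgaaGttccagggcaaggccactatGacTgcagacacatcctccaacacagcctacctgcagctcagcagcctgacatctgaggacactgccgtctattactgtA

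The libraries held 32520709 to 46409700 assigned reads, and AAV-CTRL 1 stood apart, with the most reads but the fewest genes detected, 20993 against 29230 to 37535. Ptprc, which encodes CD45, had a level between 976 and 1116 CPM, which scales reads to 1 common library total, in every library. The 12 plasma cell markers summed to 674.7 and 792.9 CPM in the AAV-CTRL libraries and to 1253 and 1211 CPM in the AAV-mVEGF-C libraries. Jchain made up most of this difference, and the other 11 markers summed to 423.0 and 515.7 CPM and to 563.2 and 548.1 CPM. Of the 12 markers, 11 had a log2 fold change above 0 and 4 had an unadjusted p under 0.05. The 12 B cell markers summed to 397.5, 939.0, 446.5 and 453.5 CPM in AAV-CTRL 1, AAV-CTRL 2, AAV-mVEGF-C 1 and AAV-mVEGF-C 2. Of these, 1 had a log2 fold change above 0 and 2 were lower with an unadjusted p under 0.05. The 5 fibroblast markers summed to 562.5 and 946.8 CPM in AAV-CTRL and to 319.5 and 460.4 CPM in AAV-mVEGF-C, and 4 of them were lower with an unadjusted p under 0.05. Of all genes tested in edgeR, 1.46% were higher and 1.18% lower with such a p. The 6 neutrophil markers summed to 10550 CPM in AAV-CTRL 1 and to 4596 to 7473 CPM in the others. The part of these cell types in the values below was not tested.

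The reads of the 92 genes together were more abundant in both AAV-mVEGF-C libraries. They numbered 6815 and 6343 in AAV-CTRL and 17755 and 13834 in AAV-mVEGF-C. Of the assigned reads, AAV-CTRL 1 and 2 had 0.01468% (Wilson 95% interval 0.01434 to 0.01504) and 0.01903% (0.01856 to 0.0195) in these genes. AAV-mVEGF-C 1 and 2 had 0.04666% (0.04598 to 0.04735) and 0.04254% (0.04184 to 0.04325). These intervals cover counting error only. The AAV-CTRL libraries had a summed level of 168.6 ± 30.7 CPM (SD, n = 2). The AAV-mVEGF-C libraries had 446.0 ± 29.1 CPM (SD, n = 2), 2.65 times as much. The groups did not overlap, and the exact two-sided permutation test gave p = 0.333, which is the smallest p that 2 libraries against 2 can give. The log2 difference of 1.41 lay between 1.23 and 1.60 when any 1 library was left out, and it was 1.23 without AAV-CTRL 1.

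Transcripts of other antibody genes were compared with these reads within each library. The 92 genes held 42.18% and 30.64% of all Ighv reads in AAV-CTRL and 29.76% and 38.35% in AAV-mVEGF-C, the remainder being Ighv1 reads. The member to Ighv1 ratio was 0.7296 and 0.4417 in AAV-CTRL and 0.4236 and 0.6222 in AAV-mVEGF-C, so that the groups overlapped (exact two-sided permutation p = 0.667, adjusted p = 0.833 over 5 ratios). The ratio therefore differed as much between libraries of a group as between groups. Relative to Igkv genes, which encode the variable end of kappa light chains, the ratio was 0.4086 and 0.2968 in AAV-CTRL and 0.2898 and 0.2775 in AAV-mVEGF-C. This ratio was lower in both AAV-mVEGF-C libraries, and AAV-CTRL 2 lay close to them (exact permutation p = 0.333, adjusted p = 0.833).

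The ratios to a few non-variable genes were added with the results known. Relative to Jchain, which joins secreted IgA and IgM into polymers and is a plasma cell transcript, member reads stood at 0.5836 and 0.6863 in AAV-CTRL and at 0.6764 and 0.6419 in AAV-mVEGF-C. Relative to Igha, the constant gene of IgA, they stood at 0.3488 and 0.3896 in AAV-CTRL and at 0.3967 and 0.3587 in AAV-mVEGF-C. Both ratios overlapped between groups (exact permutation p = 1.0 and 0.667, adjusted p = 1.0 and 0.833). Relative to Ighm, the constant gene of IgM, they stood at 0.1879 and 0.08824 in AAV-CTRL and at 0.2332 and 0.2013 in AAV-mVEGF-C. This last ratio was higher in both AAV-mVEGF-C libraries (exact permutation p = 0.333, adjusted p = 0.833). The library with the lowest value, AAV-CTRL 2, was also the library with the highest sum of B cell markers, and a link between them was not tested. Of 8 heavy chain constant genes, 7 were tested, 6 of these had a log2 fold change above 0, and their summed level was 1508 and 3049 CPM in AAV-CTRL and 6243 and 6260 CPM in AAV-mVEGF-C.

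**Figure D1:**
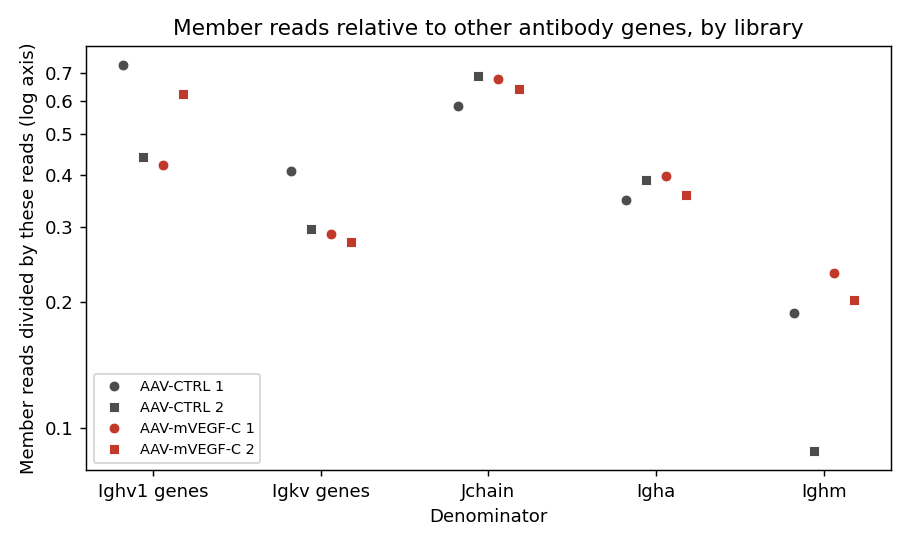
Reads of the 92 genes divided by the reads of Ighv1 genes, Igkv genes, Jchain, Igha and Ighm on a log axis, with 1 point per library (gray, AAV-CTRL; red, AAV-mVEGF-C; circles, library 1; squares, library 2). The ratios to Jchain lie between 0.5836 and 0.6863 in the 4 libraries, whereas those to Ighv1 genes range from 0.4236 to 0.7296 with the groups mixed.

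At the level of subfamilies, 12 of 15 had at least 10 reads in every library. Of these 12, 10 had a higher summed CPM in both AAV-mVEGF-C libraries than in either AAV-CTRL library, and 0 had a lower one. The exceptions were Ighv6 and Ighv11, whose groups overlapped. Of all single genes tested, 15.4% were higher in this way and 16.7% were lower. The 12 sums come from the same 4 libraries and share 1 member total, so they are not separate results. Each of the 10 had an exact permutation p of 0.333, the smallest possible, and an adjusted p of 0.4.

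The Ighv5 subfamily, the largest with 22 members, had close replicates in both groups. It summed to 25.08 and 25.59 CPM in AAV-CTRL and to 83.94 and 84.93 CPM in AAV-mVEGF-C, a 3.33-fold ratio of means. Of its 22 members, 13 had reads and 8 were tested. Ighv3 summed to 19.48 and 21.36 CPM and to 57.29 and 52.49 CPM, a 2.69-fold ratio. Ighv4, of which Ighv4-1 held 99.5% of the reads, summed to 24.61 and 35.82 CPM and to 49.72 and 60.24 CPM, a 1.82-fold ratio. Ighv9 summed to 11.92 and 17.88 CPM in AAV-CTRL and to 76.55 and 49.75 CPM in AAV-mVEGF-C, a 4.24-fold ratio. These 4 subfamilies separated the groups by more than their libraries differed.

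Ighv14 and Ighv2 each had 1 library far from its partner. Ighv14 summed to 5.71 and 12.3 CPM in AAV-CTRL and to 76.55 and 21.68 CPM in AAV-mVEGF-C. Ighv2 summed to 2.629 CPM in AAV-CTRL 1 but to 23.34 CPM in AAV-CTRL 2, against 34.4 and 40.31 CPM in AAV-mVEGF-C. For Ighv2 and Ighv14, the 2 libraries of 1 group thus differed by more than several other subfamilies differed between groups.

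Ighv8 summed to 5.667 and 15.87 CPM in AAV-CTRL and to 43.26 and 31.64 CPM in AAV-mVEGF-C. Ighv10 summed to 6.033 and 7.589 CPM and to 10.62 and 13.93 CPM. Ighv7 summed to 9.33 and 9.599 CPM and to 13.22 and 12.98 CPM, and its 1.38-fold ratio was the lowest among the 10 subfamilies. Ighv13, read only through Ighv13-2, summed to 0.3663 and 0.7199 CPM and to 2.339 and 1.876 CPM.

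Ighv6 and Ighv11 did not follow the other subfamilies. Ighv6 summed to 15.43 and 15.45 CPM in AAV-CTRL, and to 11.17 CPM in AAV-mVEGF-C 1 and 26.78 CPM in AAV-mVEGF-C 2, so that the treated libraries lay on either side of the controls. Ighv11 summed to 20.6 and 4.53 CPM in AAV-CTRL and to 7.411 and 27.74 CPM in AAV-mVEGF-C. A further 3 subfamilies were hardly read: Ighv12 had 0, 2, 4 and 34 reads, Ighv15 had 0, 6, 1 and 0 reads, and Ighv16 had no read in any library, where a count of 0 allows at most 0.0646 to 0.0922 CPM.

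**Figure D2:**
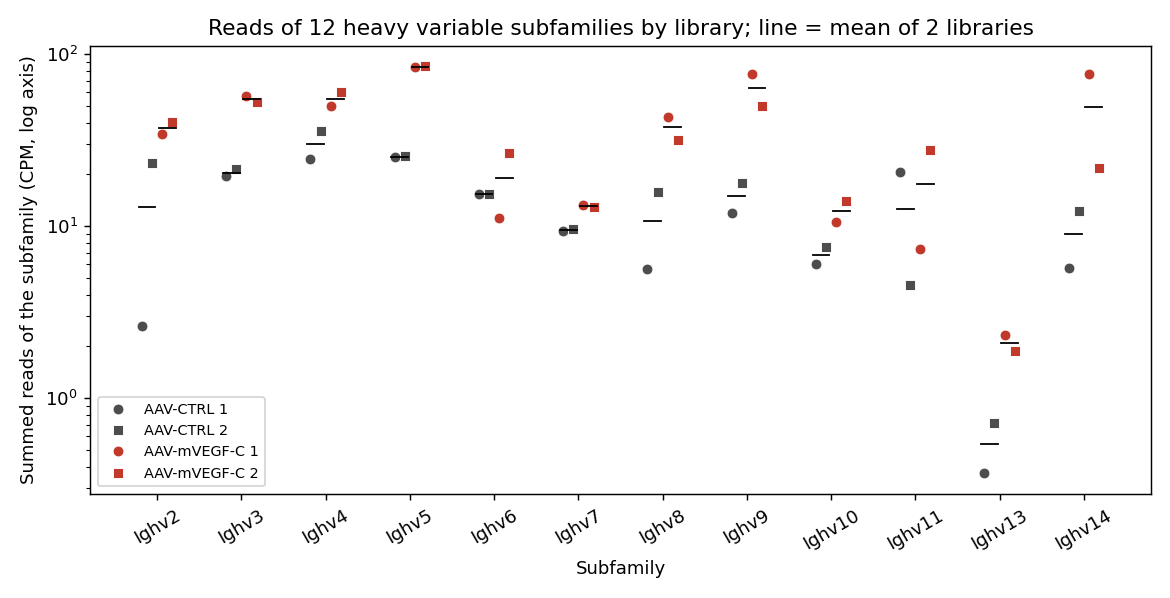
Summed CPM of each of the 12 subfamilies with at least 10 reads in every library, on a log axis, with 1 point per library (gray, AAV-CTRL; red, AAV-mVEGF-C; circles, library 1; squares, library 2) and a line at the mean of each group. Red points lie above both gray points for 10 subfamilies and overlap with them for Ighv6 and Ighv11.

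The make-up of member reads was compared as the share that each subfamily took. Ighv5 took 17.1% and 13.4% of member reads in AAV-CTRL and 18.0% and 20% in AAV-mVEGF-C. Ighv9 took 8.11% and 9.40% in AAV-CTRL and 16.4% and 11.7% in AAV-mVEGF-C. Ighv4 took 16.8% and 18.8% in AAV-CTRL and 10.7% and 14.2% in AAV-mVEGF-C. Of 12 subfamilies, the groups did not overlap for 7, of which 3 had a higher share (Ighv5, Ighv9 and Ighv13) and 4 a lower share (Ighv4, Ighv6, Ighv7 and Ighv10) in AAV-mVEGF-C. Each had an exact permutation p of 0.333 and an adjusted p of 0.571, so that no shift passed the test. Of all single genes tested, 15.4% were higher and 16.7% lower in CPM without overlap. Shares of 1 total also depend on each other, so the 7 are not separate shifts. In shares of TPM, 5 of 12 did not overlap, and Ighv5 and Ighv13 were among those that did.

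Levels between genes were compared per length, in TPM, which divides reads by transcript length and scales each library to 1 common total. By the mean of its share over the 4 libraries, Ighv5 held 15.4% of member TPM, Ighv3 13.9%, Ighv9 13.2% and Ighv4 13.0%. These 4 did not separate beyond their spread, since the Ighv9 share alone ranged from 9.56% to 19.1%. The member with the highest TPM was Ighv3-6 in AAV-CTRL 1 (90.485 TPM) and in AAV-mVEGF-C 1 (194.874 TPM), and Ighv4-1 in AAV-CTRL 2 (122.706 TPM) and in AAV-mVEGF-C 2 (189.402 TPM). In AAV-CTRL 1 they differed little, with Ighv4-1 at 88.84 TPM.

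Use was spread over a limited number of members. Members with more than 3 reads numbered 33 and 42 in AAV-CTRL and 41 and 43 in AAV-mVEGF-C (exact permutation p = 0.667). After thinning every library to the smallest member total, the numbers were 31.99, 41.0, 32.95 and 38.11 (exact permutation p = 1.0). With more than 10 reads they numbered 31 and 30 in AAV-CTRL and 31 and 37 in AAV-mVEGF-C, so that the library with the fewest members depended on the limit. The 5 leading members by reads held 59.48% and 47.63% of member reads in AAV-CTRL and 47.64% and 44.45% in AAV-mVEGF-C. The effective number of members (inverse Simpson index, which counts members as if all were used equally) was 11.28 and 13.84 in AAV-CTRL and 14.84 and 16.37 in AAV-mVEGF-C. It was higher in both treated libraries (exact permutation p = 0.333), but by Shannon entropy the values of 16.16 and 20.37 and of 18.93 and 22.62 overlapped (exact permutation p = 0.667). The difference of 3.05 in the inverse Simpson index was 1.77 without AAV-CTRL 1 and 1.80 without the leading members.

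The pattern of use did not sort the libraries by treatment. The share of use that a pair of libraries had in common, summed over the 66 members with reads as the smaller of both shares of member reads, ran from 52.5% to 67.1%. It was 57.3% between the AAV-CTRL libraries and 58.9% between the AAV-mVEGF-C libraries, and the highest value was between AAV-CTRL 2 and AAV-mVEGF-C 2. These values describe members that share libraries and depth, and carry no test.

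Single members were tested with edgeR's quasi-likelihood test on all genes that passed its filter on low counts. Of the 92 members, 66 had reads and 33 passed the filter, and these 33 held 96.9% to 99.5% of member reads. None of the 33 had a Benjamini-Hochberg adjusted p under 0.05, and of all 19806 genes tested 0 did (0%). With an unadjusted p under 0.05, 14 of 33 were higher in AAV-mVEGF-C, against 1.46% of all genes tested, and 0 of 33 were lower, against 1.18%. Members that the filter removed, lower or higher, were not part of this count. Examples chosen after their values were seen are Ighv8-5 and Ighv2-6. Ighv8-5 had 100.66 and 6.02 reads in AAV-CTRL and 2 and 0 in AAV-mVEGF-C. Ighv2-6 had 0 and 4 reads in AAV-CTRL and 7 and 181 in AAV-mVEGF-C. The 14 came from 9 subfamilies, and their log2 fold changes ranged from 0.87 to 6.90. The largest was that of Ighv9-4, with 0 and 10 reads in AAV-CTRL and 1196.45 and 62 reads in AAV-mVEGF-C. Of the 33, 28 had a log2 fold change above 0, and the median was 1.53, against 0.00 over all genes.

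By DESeq2, the test of the study, 5 of the 40 members with an adjusted p were higher with an adjusted p under 0.05, against 0.313% of all genes. They were Ighv3-6, Ighv9-3, Ighv5-17, Ighv5-16 and Ighv14-4. In CPM, 14 of 33 members had both AAV-mVEGF-C libraries above both AAV-CTRL libraries, against 15.4% of genes tested. The opposite held for 1 of 33, against 16.7%, namely Ighv5-6, which was picked for this after its values were seen. Ighv5-6 had 8.533 and 1.08 CPM in AAV-CTRL and 1.025 and 0.09225 CPM in AAV-mVEGF-C, so that AAV-CTRL 2 and AAV-mVEGF-C 1 barely differed.

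**Figure D3:**
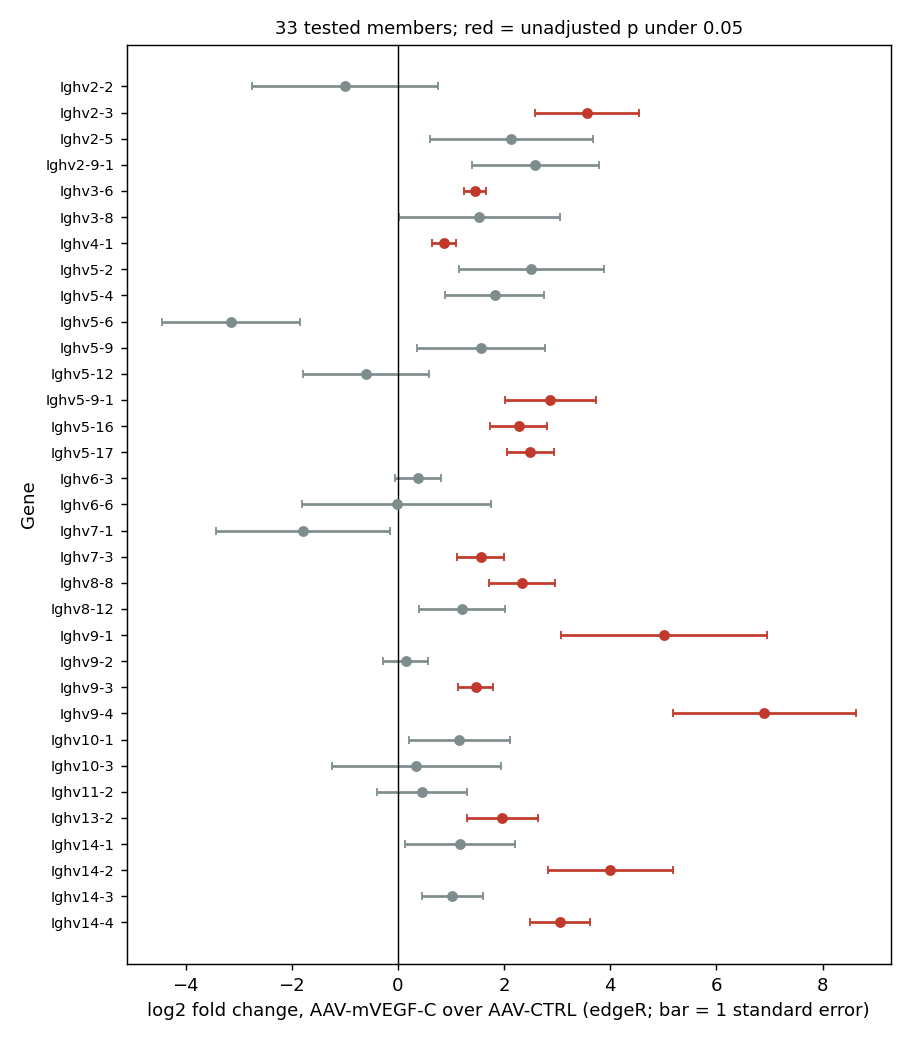
Log2 fold change of AAV-mVEGF-C over AAV-CTRL for the 33 tested members by edgeR, grouped by subfamily, with bars of 1 standard error (red, unadjusted p under 0.05; gray, others). Of the 33, 28 lie to the right of 0 and the standard errors range from 0.202 to 1.94.

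Ighv3-6 (ENSMUSG00000076672.7, chr12:114288152-114288582) had the smallest edgeR p of the members. It had 17.82 and 15.99 CPM in AAV-CTRL and 52.53 and 40.59 CPM in AAV-mVEGF-C. The libraries of each group lay close together and the groups did not overlap. Its log2 fold change was 1.45 (SE 0.20, edgeR adjusted p = 0.416), and DESeq2 gave an adjusted p of 2.25e-05. Ighv4-1, the most read member over the 4 libraries, had 24.54 and 35.61 CPM in AAV-CTRL and 49.51 and 59.93 CPM in AAV-mVEGF-C. The log2 fold change of 0.87 (SE 0.22) was the smallest of the 14, with an edgeR adjusted p of 0.999.

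In the Ighv5 subfamily, Ighv5-17, Ighv5-16 and Ighv5-9-1 were higher in both AAV-mVEGF-C libraries, and Ighv5-6 was lower. Ighv5-9-1 had 0.6464 and 0.5418 CPM in AAV-CTRL and 1.413 and 7.237 CPM in AAV-mVEGF-C. Ighv5-17 had 4.827 and 4.05 CPM in AAV-CTRL and 15.58 and 34.47 CPM in AAV-mVEGF-C. The log2 fold change was 2.50 (SE 0.44, edgeR adjusted p = 0.788, DESeq2 adjusted p = 4.46e-07). It was 2.99 without AAV-mVEGF-C 1 and 1.77 without AAV-mVEGF-C 2. Ighv5-16 had 2.241 and 7.649 CPM in AAV-CTRL and 20.26 and 26.48 CPM in AAV-mVEGF-C, a log2 fold change of 2.27 (SE 0.54). Ighv5-4 had 3.943, 8.428 and 4.171 CPM in AAV-CTRL 1, AAV-CTRL 2 and AAV-mVEGF-C 2, but 40.05 CPM in AAV-mVEGF-C 1. The even sums of the Ighv5 subfamily in both treated libraries were therefore led, by reads, by different genes, Ighv5-4 in AAV-mVEGF-C 1 and Ighv5-17 in AAV-mVEGF-C 2.

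In the Ighv9 and Ighv14 subfamilies too, several members stood out in 1 treated library. Ighv9-3 had 9.023 and 13.04 CPM in AAV-CTRL and 40.03 and 21.12 CPM in AAV-mVEGF-C, a log2 fold change of 1.46 (SE 0.33). Ighv9-4 had 0 and 0.30 CPM in AAV-CTRL, 31.44 CPM in AAV-mVEGF-C 1 and 1.906 CPM in AAV-mVEGF-C 2. AAV-mVEGF-C 1 held 93.4% of the summed CPM of Ighv9-4, and its log2 fold change of 6.90 (SE 1.72) was 3.77 without that library. Ighv9-1, named after its values were seen, was the reverse, with 0.5001 CPM in AAV-mVEGF-C 1 and 23.98 CPM in AAV-mVEGF-C 2, against 0.02155 and 0.8099 CPM in AAV-CTRL.

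Ighv14-4 had 1.203 and 2.475 CPM in AAV-CTRL and 22.28 and 8.343 CPM in AAV-mVEGF-C. The log2 fold change was 3.05 (SE 0.57, edgeR adjusted p = 0.918, DESeq2 adjusted p = 4.46e-07). It was 2.235 without AAV-mVEGF-C 1 and 3.579 without AAV-mVEGF-C 2. Ighv14-2 had 1.896 and 0.6599 CPM in AAV-CTRL and 40.19 and 3.204 CPM in AAV-mVEGF-C, and AAV-mVEGF-C 1 held 87.5% of its summed CPM. Its log2 fold change of 4.0 (SE 1.18) was 1.33 without that library. Its near copy Ighv14-1 had 0.284 and 2.363 CPM in AAV-CTRL and 1.391 and 4.342 CPM in AAV-mVEGF-C, without a peak in AAV-mVEGF-C 1.

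Ighv8-8 had 2.349 and 8.819 CPM in AAV-CTRL and 37.53 and 18.23 CPM in AAV-mVEGF-C, a log2 fold change of 2.34 (SE 0.63) that was 1.67 without AAV-CTRL 1 and 3.51 without AAV-CTRL 2. Ighv7-3 had 2.327 and 5.91 CPM and 13.06 and 10.89 CPM. Its log2 fold change of 1.56 (SE 0.45) was 1.04 without AAV-CTRL 1 and 2.31 without AAV-CTRL 2. Ighv2-3 had 0.5387 and 1.71 CPM and 3.627 and 21.8 CPM, with 78.8% of its summed CPM in AAV-mVEGF-C 2. Ighv6-3, the leading Ighv6 member, had 15.36 and 9.179 CPM and 10.91 and 21.19 CPM, so that its groups overlapped. Ighv7-3 and Ighv8-8 thus followed the summed level of the members, and Ighv6-3 did not.

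**Figure D4:**
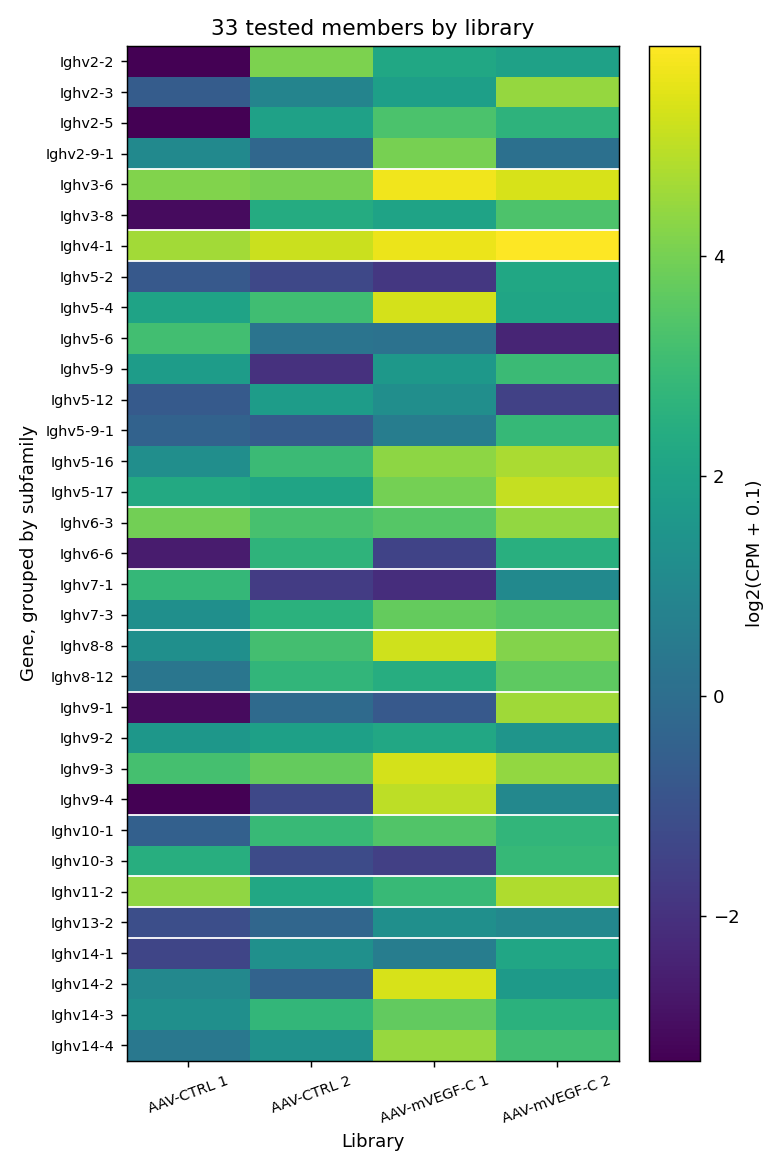
Level of the 33 tested members in each library as log2(CPM + 0.1), with 1 row per gene, grouped by subfamily, and brighter colors for higher levels. Ighv3-6 and Ighv4-1 are bright in all 4 libraries, whereas Ighv9-4 and Ighv14-2 are bright in AAV-mVEGF-C 1 only and Ighv9-1 in AAV-mVEGF-C 2 only.

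Several variable genes are known for the B cells that use them. Ighv11-2 and Ighv12-3 are used by B-1 cells, innate-like B cells, in antibodies to phosphatidylcholine. Ighv11-2 had 20.6 and 4.53 CPM in AAV-CTRL and 7.358 and 27.61 CPM in AAV-mVEGF-C. It was high in 1 library of each group, and its log2 fold change of 0.46 (SE 0.85, edgeR adjusted p = 0.999) was 2.0 without AAV-CTRL 1 and -0.85 without AAV-mVEGF-C 2. Its near copy Ighv11-1 had 0, 0, 2.03 and 4.13 reads, so that nearly all reads of the pair were given to Ighv11-2. Ighv12-3 had 0, 2, 4 and 34 reads.

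Ighv7-1 is known from natural antibodies to phosphorylcholine. It had 7.003 and 0.21 CPM in AAV-CTRL and 0.1314 and 1.999 CPM in AAV-mVEGF-C, again high in AAV-CTRL 1 and AAV-mVEGF-C 2. Its log2 fold change of -1.79 (SE 1.64) was 2.38 without AAV-CTRL 1. Ighv5-2, among the genes nearest the diversity segments and joined often in early B cell precursors, had 0.4956, 0.30 and 0.184 CPM in AAV-CTRL 1, AAV-CTRL 2 and AAV-mVEGF-C 1 and 4.366 CPM in AAV-mVEGF-C 2. The 6 B-1 cell markers summed to 1227 and 917.7 CPM in AAV-CTRL and to 1116 and 1111 CPM in AAV-mVEGF-C, and 7 B cell precursor markers to 167.3 and 215.7 CPM and to 190.1 and 160.8 CPM. Both sums are carried by genes that other leukocytes also express, Itgam and Spn in the B-1 list and Il7r in the precursor list. Among the precursor markers, Rag1, which cuts the variable genes for joining, had 14.11 and 44.46 CPM in AAV-CTRL and 3.048 and 8.302 CPM in AAV-mVEGF-C, and Vpreb3 had 1.616 and 17.13 CPM and 2.628 and 5.012 CPM. The part of B cell precursors in the variable gene reads was not tested.

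The near copies Ighv10-1 and Ighv10-3 were at like CPM in AAV-mVEGF-C 2 and differed in the other libraries. Ighv10-1 had 0.6033 and 7.259 CPM in AAV-CTRL and 10.38 and 6.703 CPM in AAV-mVEGF-C. Ighv10-3, named for its likeness in sequence, had 5.43 and 0.33 CPM in AAV-CTRL and 0.2365 and 7.226 CPM in AAV-mVEGF-C. Ighv10-1 was low in AAV-CTRL 1, and Ighv10-3 was low in AAV-CTRL 2 and AAV-mVEGF-C 1. Ighv13-2 had 0.3663 and 0.7199 CPM in AAV-CTRL and 2.339 and 1.876 CPM in AAV-mVEGF-C, a log2 fold change of 1.96 (SE 0.67).

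Members varied between libraries of the same group far more than all genes tested did as a whole. The absolute log2 difference between the AAV-CTRL libraries had a median of 1.65 over the 33 tested members and of 0.471 over all genes tested. Between the AAV-mVEGF-C libraries the medians were 1.4 and 0.246. Other antibody genes were not summarized in this way. Among the constant genes, Ighg3 had 0.02155 and 282.8 CPM in the AAV-CTRL libraries, whereas Igha had 421 and 488.4 CPM. Of the 33 tested members, 20 had 50% or more of their summed CPM in 1 library. Those 20 members held 29.33% and 33.83% of member reads in AAV-CTRL and 48.33% and 39.89% in AAV-mVEGF-C, and 8 of them were among the 14 with an unadjusted p under 0.05.

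Of the 40 members with at least 30 reads in some library, 14 had 75% or more of their summed CPM in 1 library. AAV-CTRL 1 and 2 were that library for 4 and 1 members, and AAV-mVEGF-C 1 and 2 for 3 and 6. An example chosen after its values were seen is Ighv2-6, with 0 and 4 reads in AAV-CTRL and 7 and 181 reads in AAV-mVEGF-C. AAV-CTRL 1 was the lowest library for 23 of the 40. Members that were high in 1 library thus occurred in all 4 libraries, controls included.

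Most member reads came from the side of the locus nearest the diversity segments. The members lie across 2285 kb, and 65 of 92 lie on that side, before the first Ighv1 gene at position 114351705. These 65 took 81.28% and 79.05% of member reads in AAV-CTRL and 85.53% and 82.3% in AAV-mVEGF-C. The 27 members farther out include 15 of the 16 Ighv8 genes and all 4 Ighv10 genes. The share in AAV-mVEGF-C 2 lay closer to AAV-CTRL 1 than the AAV-CTRL libraries lay to each other, so that the groups separated by less than their own spread.

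**Figure D5:**
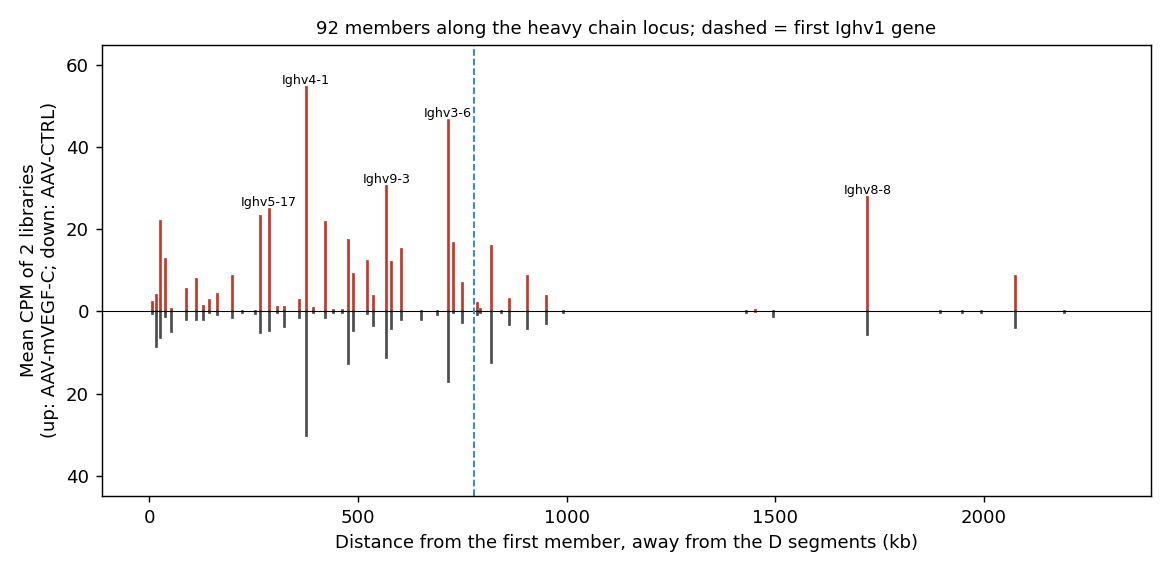
Mean CPM of each of the 92 members along the heavy chain locus, as distance in kb from the first member away from the diversity segments (up, AAV-mVEGF-C; down, AAV-CTRL; means of 2 libraries), with the first Ighv1 gene dashed at 778.8 kb. Tall lines for Ighv4-1, Ighv9-3 and Ighv3-6 lie before the dashed line, and Ighv8-8 is the tall line far beyond it.

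Members that were not tested added little. Of 59, 26 had no read in any library and 33 had reads but did not pass the filter, which asks for enough reads in at least 2 libraries. The 31 pseudogenes, of which 11 had reads, took 0.0443% of member reads in AAV-CTRL 1 and 0.2534%, 0.2932% and 0.1671% in AAV-CTRL 2, AAV-mVEGF-C 1 and AAV-mVEGF-C 2. Reads of the members thus came almost entirely from genes annotated as able to encode a variable domain.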

How the data were processed

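RNA of dural CD45+ cells was sequenced in 4 libraries after preparation with a stranded total RNA kit for picogram inputs. The authors deposited estimated counts per gene, not normalized, of which 8.18% have decimals, and TPM values for the same genes. The submitters' processing notes name mm10, FastQC, Trimmomatic, DRAGEN and Picard, and the counter's settings are not given in the sources used here. Estimated counts were rounded and tested with edgeR 4.0.16 (R 4.3.3) on 19806 genes passing filterByExpr, with TMM scaling, all 4 libraries, no block and Benjamini-Hochberg adjustment at 0.05. DESeq2 1.42.0, limma 3.58.1 on TPM and on counts, other scalings, filters and each library left out were alternatives. A standard error is the log2 fold change divided by the square root of F.

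Single values per library were compared by exact two-sided permutation (SciPy 1.17.1). The depth of 32520709 to 46409700 reads puts the level that a count of 0 allows (3 reads) at 0.0646 to 0.0922 CPM. Coordinates and exon sequences came from GENCODE M21 (GRCm38, the assembly of mm10), in which all 92 identifiers matched with their versions. Identity was counted over at least 250 aligned bases. Members, lists and tests were chosen with earlier results of these data known. The 20 members named by rule were the 12 with the highest mean CPM, each subfamily's leader, the 10 smallest p-values, DESeq2 calls, each library's leader and 4 genes known from B-1 cells or precursors. The sample titles label the libraries exp1 and exp2 in both groups, which may name experiments that the groups shared. The AAV-CTRL column names carry other numbers, and same-numbered libraries did not deviate together (r = -0.134 over genes tested). Libraries were therefore not paired, although this correlation cannot exclude a shared experiment. Results with a replicate block are given below. The remaining marker lists summed, in AAV-CTRL 1, AAV-CTRL 2, AAV-mVEGF-C 1 and AAV-mVEGF-C 2, to 205.6, 197.7, 260.5 and 241.5 CPM for 6 T cell genes, to 1354, 2087, 1248 and 1657 CPM for 6 macrophage genes and to 61.6, 75.41, 56.0 and 53.63 CPM for 4 endothelial genes.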

Additional observations from a re-analysis of the deposited data

How the results depend on the processing

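The number of members with an adjusted p under 0.05, 0 of 33 by edgeR, was 5 with DESeq2, all higher. It was 19 of 66 without a filter on low counts, 17 of them higher, where 268 of 40674 genes were called. It was 0 with limma-voom, TPM at both pseudocounts, other size factors, a minimum of 10 reads per library, and library sizes that omit immunoglobulin genes. With 1 library left out it ranged from 0 to 27, being 17 without AAV-CTRL 1, 27 without AAV-CTRL 2, 0 without AAV-mVEGF-C 1 and 6 without AAV-mVEGF-C 2. The lone library is then assumed to vary like the other group, and all genes called also went from 0 to as many as 2058. The 14 members with an unadjusted p under 0.05 were all higher. They became 22 with DESeq2 (20 higher) and 33 without a filter (27 higher), and ranged from 16 to 33 with 1 library left out (12 of 17 higher without AAV-mVEGF-C 2), the remainder being lower. Over all genes, 523 of 19806 had an unadjusted p under 0.05 as reported, 854 of 40674 with DESeq2 and 1327 of 40674 without a filter. With 1 library left out, the number over all genes varied widely too. The member counts of those fits therefore cannot show a change particular to the members. The median log2 fold change over all genes shifted to 0.25 with DESeq2, 0.22 without a filter and -0.11 with TPM at a pseudocount of 0.1, against member medians of 1.57, 1.81 and 1.39. The replicate block gave 1 member called, Ighv9-1, of 11 genes called, and 19 unadjusted (18 higher). Crossed pairs, chosen after seeing the data, gave 4 of 54 genes called and 18 unadjusted, so the number called depends on which libraries are taken as pairs. The summed share, the ratios to Igkv genes and the subfamily counts kept their direction under every alternative run, but the log2 ratio to Igkv genes of -0.30 was -0.07 without AAV-CTRL 1 and -0.53 without AAV-CTRL 2. The 7 of 12 subfamilies with separate shares ranged from 7 to 12 with 1 library left out, were 12 without AAV-CTRL 2, and numbered 5 both in TPM and without the leading members. The log2 ratio to Ighv1 genes, -0.14, was 0.22 without AAV-CTRL 1 and 0.13 without AAV-mVEGF-C 1. Detected members, 4.5 more in AAV-mVEGF-C, were 0.97 fewer after thinning, as a difference of -0.97. Of 18 named members tested, the sign of the log2 fold change turned for 1 without AAV-CTRL 1 and for 1 without AAV-CTRL 2. The sign turned for 1 without AAV-mVEGF-C 1 and for 3 without AAV-mVEGF-C 2. The log2 fold change turned to -0.50 for Ighv5-4 without AAV-mVEGF-C 1, to -0.85 for Ighv11-2, -1.15 for Ighv5-2 and -0.22 for Ighv6-3 without AAV-mVEGF-C 2, to -0.26 for Ighv11-2 without AAV-CTRL 2 and to 2.38 for Ighv7-1 without AAV-CTRL 1. The cause of these changes was not tested.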
